A study of Mus musculus with 20 samples.

Results

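Glycolysis enzymes were followed across the 4 groups of a mouse heart experiment through 10 genes: the hexokinases Hk1 and Hk2, the phosphofructokinases Pfkm, Pfkl and Pfkp, the regulatory enzyme Pfkfb2, the phosphoglycerate mutase Pgam2, the enolase Eno3, and the lactate dehydrogenases Ldha and Ldhb. They were taken by symbol, and each was read from a probe set annotated to that symbol alone, the one of highest mean over 20 arrays where there were several. All 10 passed the filter on low values and were among the 12082 genes tested, of 18193 genes that had such a probe set. Every group consisted of female C57BL/6 mice, ovariectomized at 8 weeks of age and fitted with a minipump, whose ventricles gave total RNA for Affymetrix arrays, 5 arrays to a group. The pumps held 16 alpha LE2 (an agonist of estrogen receptor alpha), 17 beta estradiol (an estrogen that activates both classical receptors) or placebo, and treatment lasted 4 weeks. The remaining group carries the title beta while its treatment label says control solution. It is called beta-titled here and was kept apart from placebo. Estrogens were given in cyclodextrin. The doses are not given in the labels. The labels do not say that the arrays of a group come from separate animals, so p-values measure the spread between these samples, which may be technical.

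Glycolysis splits glucose into pyruvate in the cytosol. Hexokinase traps glucose as glucose 6-phosphate, phosphofructokinase makes the committed step and is held under tight allosteric control, and lactate dehydrogenase interconverts pyruvate and lactate. The adult heart draws most of its energy from fatty acids and uses glucose and lactate besides. The series is about estrogen receptor alpha and glucose uptake in the heart, which is the step upstream of these enzymes. In bulk RNA, fewer cells of a type and less RNA per cell cannot be told apart.

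None of the 10 genes passed an adjusted p of 0.05 in any of the 6 comparisons between groups, or in a test of any difference among the 4 groups (limma, Benjamini-Hochberg over all genes tested). The share of all genes tested that passed was 0.223% for 16 alpha LE2 against placebo, 0% for 17 beta estradiol against placebo, 0% for the beta-titled group against placebo, 0.0166% for 16 alpha LE2 against 17 beta estradiol, 0.174% for 16 alpha LE2 against the beta-titled group, 0% for 17 beta estradiol against the beta-titled group and 0.157% for the test over 4 groups. At an unadjusted p under 0.05, 9.01%, 9.63% and 5.7% of all genes passed in the comparisons of 16 alpha LE2, 17 beta estradiol and the beta-titled group with placebo, and 0 of the 10 enzymes did in each. Eno3 was the 1 enzyme under that limit for 16 alpha LE2 against the beta-titled group (5.6% of all genes), Ldhb was the 1 for 17 beta estradiol against the beta-titled group (3.83%), and none was for 16 alpha LE2 against 17 beta estradiol (5.19%) or in the test over 4 groups (6.32%). In no comparison did the arrays of a pair of groups separate without overlap for any of the 10 enzymes. Among all genes tested, the arrays lay wholly above placebo for 0.579% and wholly below it for 2.7% with 16 alpha LE2, for 0.207% and 0.67% with 17 beta estradiol, and for 0.439% and 0.406% in the beta-titled group. The shares wholly above and below were 0.166% and 0.588% for 16 alpha LE2 against 17 beta estradiol, 0.993% and 1.28% for 16 alpha LE2 against the beta-titled group, and 0.248% and 0.149% for 17 beta estradiol against the beta-titled group.

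The intervals state how large a change the 5 arrays per group leave possible. Over the 60 differences (10 genes by 6 comparisons), the estimates ran from -0.20 to 0.22 on the log2 scale, and the 95% confidence intervals reached from -0.51 to 0.55. These outer bounds correspond to 0.703-fold and 1.47-fold. The narrowest interval spanned 0.16 on each side of its estimate and the widest 0.34. All but 2 of the 60 intervals contained 0. A log2 difference of 1 is taken as 2-fold, since the deposited values read as log2. Array E2 33, of the 17 beta estradiol group, stood apart from the series: its rank correlations with the other arrays over all probe sets were 0.922 to 0.941, where pairs of the other arrays had 0.978 to 0.992. Without it, none of the 10 genes passed in any comparison either. The log2 difference between 17 beta estradiol and placebo then turned sign for Pfkfb2, to 0.11 in place of -0.03, and for Ldhb, to -0.02 in place of 0.02.

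**Figure D1:**
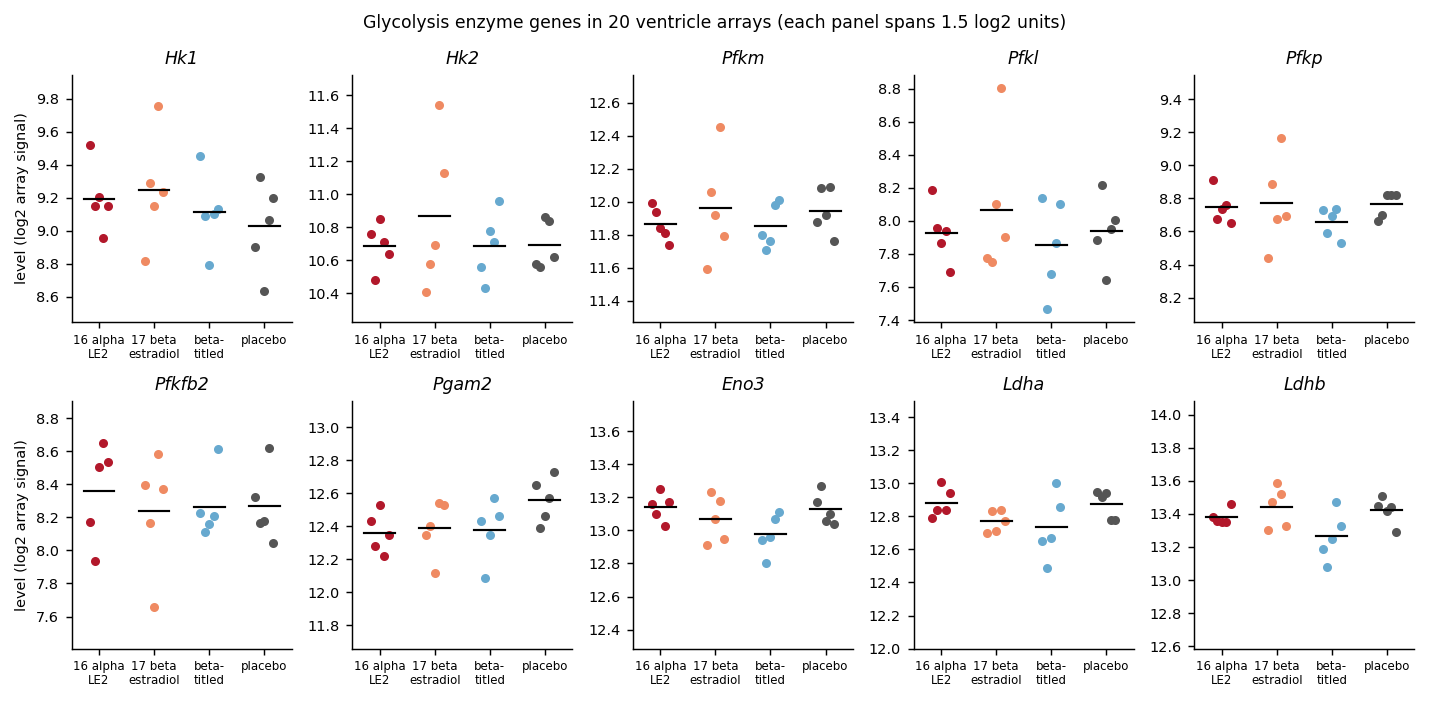
Deposited log2 level of each of the 10 enzymes on every array (points), with the group mean (line), for 16 alpha LE2, 17 beta estradiol, beta-titled and placebo ventricles, 5 arrays each. The groups overlap in every panel, and the 17 beta estradiol arrays are the most spread out for Hk2, Pfkm, Pfkl and Pfkp.

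The start regions of 4 of these genes are shown as examples. Each holds a match to a motif searched for in a study of a nuclear receptor and of glycolysis. Eno3, Ldha and Ldhb also varied together across arrays. Hk2, Pfkm and Pfkfb2 hold matches too and are not shown. Each sequence is the 250 bases before the first listed transcription start in the RefSeq table (GRCm38.p6), read 5′ to 3′ on the strand of the gene. Capitals mark matches, on either strand, to the hypoxia response core ACGTG, the estrogen response half-site AGGTCA, the full estrogen response palindrome GGTCANNNTGACC, whose arms share letters with the half-site, or the MEF2 site, which many muscle genes carry.
Ldha, chr7:46845554-46845803, plus strand: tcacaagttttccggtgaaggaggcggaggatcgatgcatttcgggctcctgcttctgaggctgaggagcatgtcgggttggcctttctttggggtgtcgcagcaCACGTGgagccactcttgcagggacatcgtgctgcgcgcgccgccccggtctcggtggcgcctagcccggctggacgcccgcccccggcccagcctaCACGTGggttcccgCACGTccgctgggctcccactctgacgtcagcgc
Ldhb, chr6:142507958-142508207, minus strand: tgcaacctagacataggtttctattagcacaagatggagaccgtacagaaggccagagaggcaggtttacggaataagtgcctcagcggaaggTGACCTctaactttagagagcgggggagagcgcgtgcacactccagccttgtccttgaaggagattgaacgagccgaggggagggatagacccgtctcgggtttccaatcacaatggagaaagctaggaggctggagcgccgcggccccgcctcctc
Eno3, chr11:70656926-70657175, plus strand: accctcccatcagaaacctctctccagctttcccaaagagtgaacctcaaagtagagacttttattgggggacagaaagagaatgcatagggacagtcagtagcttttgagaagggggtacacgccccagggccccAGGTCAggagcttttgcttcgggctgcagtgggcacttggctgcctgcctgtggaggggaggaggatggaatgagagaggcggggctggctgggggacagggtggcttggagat
Pgam2, chr11:5803797-5804046, minus strand: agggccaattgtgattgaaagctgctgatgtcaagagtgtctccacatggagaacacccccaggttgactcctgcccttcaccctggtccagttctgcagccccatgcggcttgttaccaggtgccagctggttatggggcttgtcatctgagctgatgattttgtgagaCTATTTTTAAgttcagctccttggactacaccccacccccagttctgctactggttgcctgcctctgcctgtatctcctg

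All 10 enzymes were matched in that table. The core ACGTG was present in the windows of Hk2, Pfkm, Pfkfb2 and Ldha, 4 of 10, and in 16.6% of the windows of all 27025 genes. The Ldha window held 5 such matches counted on both strands, where the palindromic CACGTG counts on each. The half-site AGGTCA was present in the windows of Eno3 and Ldhb, 2 of 10, against 13.8% of all genes. Only the first listed start of each gene was counted, and a later listed Pfkm start held this half-site too. The full palindrome was in 0 of the 10 windows and in 0.1% of all genes. The MEF2 site was in the window of Pgam2 alone among the 10, and in 3.0% of all genes. These are matches of letters in a short window and say nothing of a factor being bound there.

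Hexokinases act directly after glucose uptake, and neither gene passed the test in any comparison. Hk1, the ubiquitous isoform (probe set 1437974_a_at), read 9.52, 9.15, 9.21, 8.96 and 9.15 with 16 alpha LE2, and 8.82, 9.29, 9.15, 9.76 and 9.23 with 17 beta estradiol. The same gene read 9.45, 9.09, 8.79, 9.10 and 9.13 in the beta-titled arrays and 8.90, 9.33, 8.63, 9.07 and 9.20 with placebo. In each of the 3 other groups, 4 of 5 arrays lay above the placebo mean, and all groups overlapped. Hk1 averaged 9.20 ± 0.204 with 16 alpha LE2 and 9.03 ± 0.269 with placebo (SD, n = 5 each). The log2 difference was 0.17 ± 0.154 (SE; adjusted p = 0.827). With 17 beta estradiol Hk1 averaged 9.25 ± 0.338 (SD, n = 5), a log2 difference from placebo of 0.22, with an interval from -0.09 to 0.54 (adjusted p = 0.52), the largest estimate of the 60. It was 0.10 without array E2 34 (adjusted p = 0.747).

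Hk2, the insulin-responsive isoform of muscle and heart (1422612_at), read 10.76, 10.48, 10.85, 10.71 and 10.64 with 16 alpha LE2, and 10.41, 10.58, 10.69, 11.54 and 11.13 with 17 beta estradiol. The beta-titled arrays read 10.56, 10.43, 10.78, 10.71 and 10.96, and the placebo arrays 10.58, 10.56, 10.86, 10.84 and 10.62. Estradiol thus gave both the lowest and the highest Hk2 level of the 20 arrays. The mean was 10.87 ± 0.461 with 17 beta estradiol and 10.69 ± 0.148 with placebo (SD, n = 5 each), a log2 difference of 0.17 ± 0.158 (SE; adjusted p = 0.597). Without the array of 11.54, titled E2 34, that difference was 0.006. The 16 alpha LE2 mean, 10.69 ± 0.14, and the beta-titled mean, 10.69 ± 0.205, equalled that of placebo to 2 decimals, and the intervals of both differences ran from -0.33 to 0.32. The distance from Hk1 up to Hk2 on the same array, set only against the other groups, was 1.49 ± 0.213 log2 units with 16 alpha LE2, 1.62 ± 0.234 with 17 beta estradiol, 1.58 ± 0.355 in the beta-titled group and 1.67 ± 0.38 with placebo (SD, n = 5 each).

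Phosphofructokinase is a tetramer built from muscle (Pfkm), liver (Pfkl) and platelet (Pfkp) subunits, and none of the 3 genes passed the test in any comparison. Pfkm (1416780_at) averaged 11.86 ± 0.0989 with 16 alpha LE2, 11.96 ± 0.323 with 17 beta estradiol, 11.85 ± 0.137 in the beta-titled group and 11.95 ± 0.14 with placebo (SD, n = 5 each). Its arrays ran from 11.74 to 11.99 with 16 alpha LE2, from 11.59 to 12.45 with 17 beta estradiol, from 11.71 to 12.01 in the beta-titled group and from 11.76 to 12.09 with placebo. The estradiol arrays enclosed the whole range of the other groups. Its log2 difference from placebo was -0.08 ± 0.121 with 16 alpha LE2, 0.02 with 17 beta estradiol and -0.09 in the beta-titled group (adjusted p = 0.909, 0.955 and 0.856).

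Pfkl (1439148_a_at) read 8.19, 7.96, 7.86, 7.94 and 7.69 with 16 alpha LE2, and 7.78, 7.75, 8.10, 8.80 and 7.90 with 17 beta estradiol. It read 8.14, 7.47, 7.68, 7.87 and 8.10 in the beta-titled arrays and 7.89, 8.22, 7.64, 7.95 and 8.00 with placebo. The one value above 8.22 came again from array E2 34. Between 17 beta estradiol and the beta-titled group, Pfkl had a log2 difference of 0.22 with an interval from -0.12 to 0.55 (adjusted p = 0.925), and 0.03 without that array (adjusted p = 0.99). Pfkp (1416069_at) averaged 8.75 ± 0.103 with 16 alpha LE2, 8.77 ± 0.272 with 17 beta estradiol, 8.66 ± 0.0928 in the beta-titled group and 8.76 ± 0.0784 with placebo (SD, n = 5 each). Its largest difference from placebo was -0.11 ± 0.102 on the log2 scale, in the beta-titled group, where 0 of 5 arrays lay above the placebo mean (adjusted p = 0.778). The distance between Pfkl and Pfkm on the same array was -3.94 ± 0.0986 log2 units with 16 alpha LE2, -3.90 ± 0.25 with 17 beta estradiol, -4.003 ± 0.224 in the beta-titled group and -4.01 ± 0.208 with placebo (SD, n = 5 each), so that the means of the groups lay within the SD of placebo.

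Pfkfb2 makes and degrades fructose 2,6-bisphosphate, the activator of phosphofructokinase, and is the form of that enzyme typical of heart. Its level (1429486_at) averaged 8.36 ± 0.296 with 16 alpha LE2, 8.24 ± 0.354 with 17 beta estradiol, 8.27 ± 0.201 in the beta-titled group and 8.27 ± 0.221 with placebo (SD, n = 5 each). The arrays ran from 7.94 to 8.65 with 16 alpha LE2, from 7.66 to 8.58 with 17 beta estradiol, from 8.11 to 8.62 in the beta-titled group and from 8.05 to 8.62 with placebo. The log2 differences from placebo were 0.09, -0.03 and -0.004 in the same order of groups (adjusted p = 0.921, 0.93 and 0.997). The other Pfkfb2 probe set above the filter (1422091_at) averaged 8.08 ± 0.113 with 16 alpha LE2, 8.08 ± 0.146 with 17 beta estradiol, 8.07 ± 0.0938 in the beta-titled group and 8.03 ± 0.0892 with placebo (SD, n = 5 each). Over the 20 arrays, centred on their groups, the pair had a correlation of -0.01, so these probe sets did not rank the arrays alike.

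**Figure D2:**
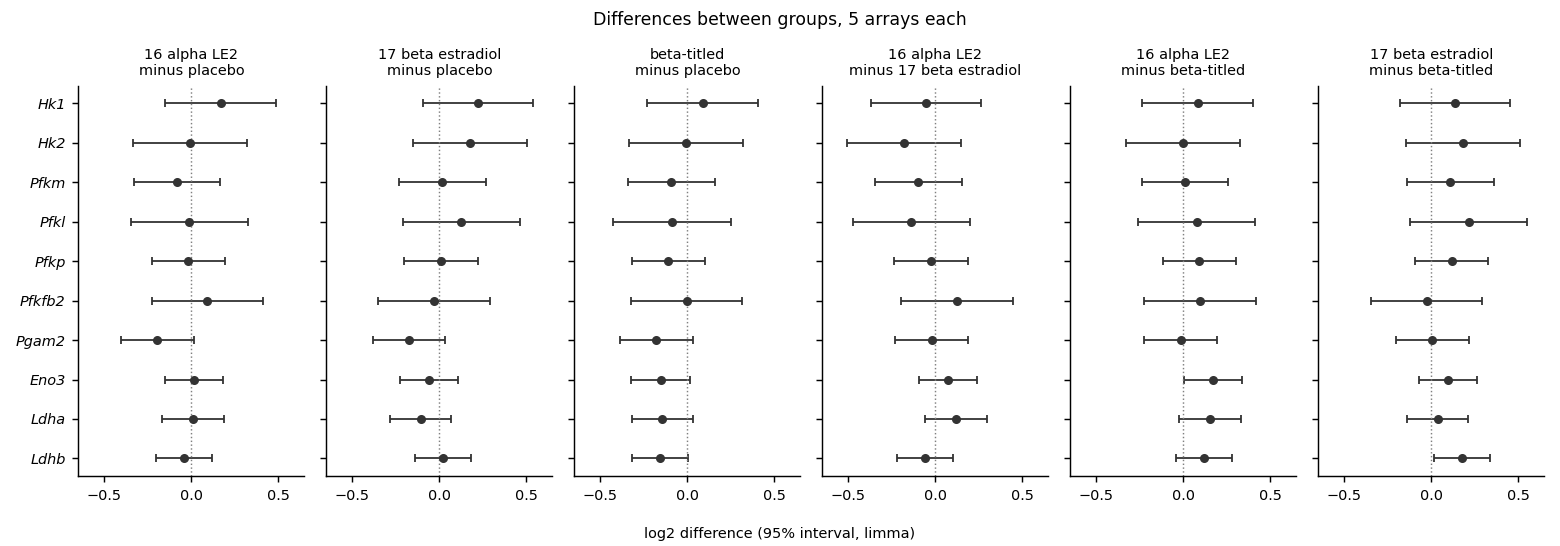
Log2 difference of each enzyme with its 95% confidence interval in the 6 comparisons, first-named group minus second. All 60 intervals lie between -0.51 and 0.55, and 2 of them leave out 0, those of Eno3 for 16 alpha LE2 minus beta-titled and of Ldhb for 17 beta estradiol minus beta-titled.

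Pgam2, the muscle form of phosphoglycerate mutase, had the smallest p of the enzymes in both comparisons of an estrogen receptor agonist with placebo, and these comparisons share the placebo arrays. Its level (1418373_at) was 12.43, 12.28, 12.53, 12.22 and 12.35 with 16 alpha LE2, and 12.35, 12.40, 12.12, 12.54 and 12.53 with 17 beta estradiol. It was 12.43, 12.09, 12.35, 12.57 and 12.46 in the beta-titled arrays, and 12.65, 12.39, 12.46, 12.57 and 12.73 with placebo. None of the 5 arrays with 16 alpha LE2, none of the 5 with 17 beta estradiol and 1 of 5 beta-titled arrays lay above the placebo mean of 12.56 ± 0.14, while the ranges overlapped (SD, n = 5). The log2 difference from placebo was -0.20 ± 0.101 with 16 alpha LE2, 0.873-fold, with an interval from -0.40 to 0.01. The unadjusted p was 0.0657, which 11.1% of all genes tested undercut, and the adjusted p 0.591. With 17 beta estradiol the log2 difference was -0.17, with an interval from -0.38 to 0.03 (adjusted p = 0.503), or -0.11 without array E2 33 (adjusted p = 0.89), and in the beta-titled group it was -0.18 (adjusted p = 0.707).

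Eno3, the muscle enolase (1417951_at), differed from placebo by at most 0.06 on the log2 scale with either agonist. It read 13.16, 13.10, 13.25, 13.03 and 13.17 with 16 alpha LE2, and 12.91, 13.23, 13.07, 13.18 and 12.95 with 17 beta estradiol. It read 12.94, 12.80, 12.96, 13.07 and 13.11 in the beta-titled arrays, and 13.17, 13.27, 13.06, 13.10 and 13.04 with placebo. The beta-titled arrays were on the low side, and their upper 2 lay inside the range of the placebo arrays. The log2 difference from placebo was 0.01 ± 0.0809 with 16 alpha LE2, with an interval from -0.15 to 0.18, -0.06 with 17 beta estradiol and -0.15 in the beta-titled group (adjusted p = 0.984, 0.719 and 0.707). Between 16 alpha LE2 and the beta-titled group it was 0.17, with an interval from 0.001 to 0.34, an unadjusted p of 0.0482 and an adjusted p of 0.89. After quantile normalization, which gives each array the same distribution, it was 0.07 ± 0.071. All 5 arrays with 16 alpha LE2 lay above the beta-titled mean.

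Lactate dehydrogenase is a tetramer of A and B subunits, the A subunit typical of skeletal muscle and the B subunit of heart. Ldha (1419737_a_at) read 12.79, 12.84, 13.01, 12.84 and 12.94 with 16 alpha LE2, and 12.70, 12.83, 12.71, 12.84 and 12.77 with 17 beta estradiol. It read 12.65, 12.49, 12.67, 13.00 and 12.86 in the beta-titled arrays, and 12.95, 12.92, 12.94, 12.78 and 12.78 with placebo. All 5 estradiol arrays were below the placebo mean of 12.88 ± 0.0874 (SD, n = 5), and the ranges overlapped. The log2 difference from placebo was 0.01 ± 0.0859 with 16 alpha LE2, with an interval from -0.17 to 0.19. With 17 beta estradiol it was -0.11, with an interval from -0.29 to 0.07, and in the beta-titled group -0.14 (adjusted p = 0.552 and 0.707).

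Ldhb (1448237_x_at) read 13.38, 13.36, 13.35, 13.35 and 13.46 with 16 alpha LE2, and 13.30, 13.47, 13.59, 13.52 and 13.33 with 17 beta estradiol. It read 13.19, 13.08, 13.25, 13.47 and 13.33 in the beta-titled arrays, and 13.45, 13.51, 13.42, 13.44 and 13.29 with placebo. The lowest 3 of all 20 values were beta-titled, and the other two beta-titled values lay within the placebo range. Between 17 beta estradiol and the beta-titled group the log2 difference was 0.18 ± 0.0773, with an interval from 0.02 to 0.34. Its unadjusted p was 0.0313, which 2.2% of all genes tested undercut, and its adjusted p was 0.925. Without array E2 33 the difference was 0.14 ± 0.0767 (adjusted p = 0.715), without the 3 arrays whose values spread least (beta 31, beta 32 and E2 33) 0.05 ± 0.0741, and after quantile normalization 0.08 ± 0.0719. The beta-titled group differed from placebo by -0.16 on the log2 scale (unadjusted p 0.0531, adjusted p = 0.707), and 16 alpha LE2 by -0.04, with an interval from -0.20 to 0.12 (adjusted p = 0.932).

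All 4 Ldhb probe sets followed each other, with correlations of 0.97, 0.823 and 0.928 between the one used and the others over 20 group-centred arrays. The beta-titled difference from placebo was -0.17 in 1416183_a_at, -0.18 in 1434499_a_at and -0.16 in 1455235_x_at, on the log2 scale. The distance from Ldha up to Ldhb on the same array, read only between groups, was 0.50 ± 0.0924 log2 units with 16 alpha LE2, 0.67 ± 0.127 with 17 beta estradiol, 0.53 ± 0.0579 in the beta-titled group and 0.55 ± 0.0766 with placebo (SD, n = 5 each). The estradiol mean was 0.13 above that of placebo, and its highest value, 0.89, came from array E2 33. Without that array the estradiol mean was 0.62 ± 0.0483 (SD, n = 4).

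The direction of most beta-titled differences turned under quantile normalization but not under median centring, which gives each array the same median. With median centring, 9 of the 10 enzymes were lower than with placebo, with a median of -0.14. With array weights 7 of 10 were lower, and with array SD as a covariate 8 of 10. As deposited, 9 of the 10 enzymes were lower in the beta-titled group than with placebo, with a median log2 difference of -0.10. Over all genes tested the median was -0.04, and 37.4% were higher. Of 9 cardiomyocyte markers in the same comparison, 7 were lower and 2 higher, with a median of -0.13. The deposited arrays differ in the spread of their values, and the SD of all values on an array was 1.295 for array beta 32, 1.323 for beta 31 and 1.345 for E2 33, the smallest 3, and up to 1.485 elsewhere. After quantile normalization, 8 of the 10 enzymes were higher in the beta-titled group, with a median of 0.02 against 0.01 over all genes. Pgam2 then differed from placebo by 0.004, and Eno3, Ldha and Ldhb by 0.02 each. Without the 3 arrays of smallest SD, 8 of 10 were lower, with a median of -0.05, and Pgam2 differed by -0.10, Eno3 by -0.08, Ldha by -0.03 and Ldhb by -0.07. Eno3 between 16 alpha LE2 and the beta-titled group was then 0.10, against 0.17 as deposited. With 16 alpha LE2 against placebo, 4 of the 10 were higher as deposited and 9 of 10 after quantile normalization. Pgam2 was the one still lower, by a log2 difference of -0.13.

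**Figure D3:**
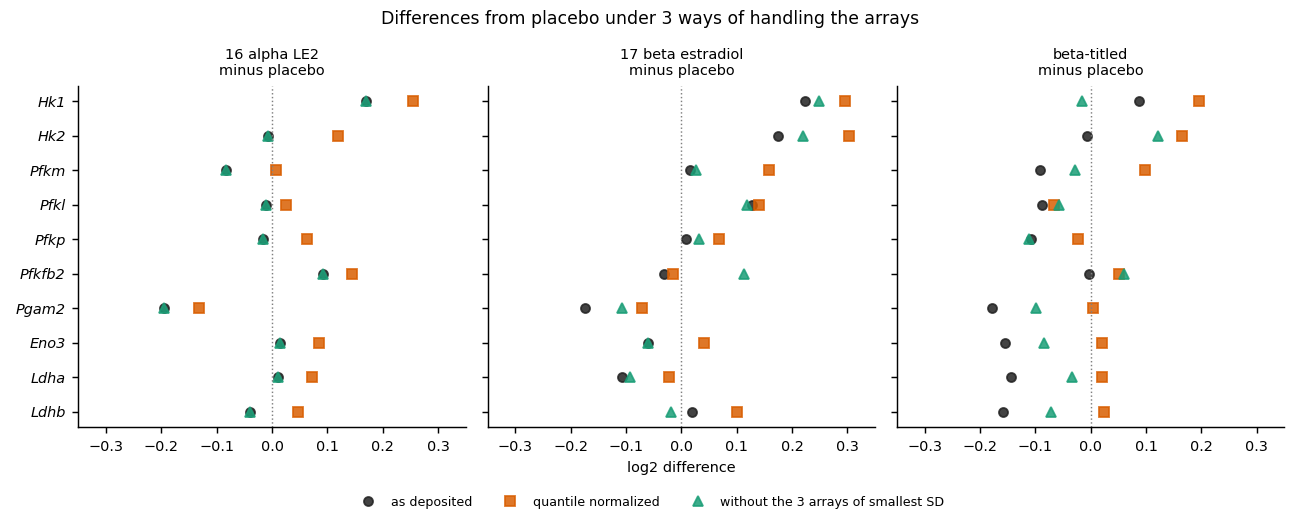
Log2 difference of each enzyme from placebo in the 16 alpha LE2, 17 beta estradiol and beta-titled groups, as deposited, after quantile normalization, and without the 3 arrays whose values had the smallest SD. In the beta-titled panel the deposited differences of Pgam2, Eno3, Ldha and Ldhb lie between -0.18 and -0.14, and those after quantile normalization between 0.004 and 0.02.

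A single array weighed on the estradiol group. Array E2 34 was the highest of its group for 8 of the 10 enzymes, all but Eno3 and Ldhb, and the enzymes on it deviated from the group mean by 0.36 log2 units on average. Over all genes tested it was the highest of its group for 23.8%. The lowest estradiol array for 7 of the 10 was E2 29, against 10.7% of all genes, with a mean deviation of -0.22. As deposited, 6 of the 10 enzymes were higher with 17 beta estradiol than with placebo, with a median of 0.01. Without array E2 34, 3 of 10 were higher, with a median of -0.09, and the log2 difference was 0.10 for Hk1, -0.11 for Pfkm, -0.06 for Pfkl and -0.21 for Pgam2. Between 16 alpha LE2 and 17 beta estradiol, the median over the enzymes was -0.04 with 3 of 10 higher, and 0.06 with 8 of 10 higher once that array was left out. In the beta-titled group, array beta 32 was the lowest for 8 of 10 enzymes and for 37.3% of all genes.

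The enzymes differed in how much they varied between arrays of a group. The SD within groups was 0.266 for Hk1, 0.272 for Hk2, 0.294 for Pfkl and 0.275 for Pfkfb2, larger than for 93.1% to 95.7% of all genes tested. It was 0.113 for Eno3, 0.122 for Ldha and 0.108 for Ldhb, each below the median of 0.16 over all genes. Pfkm had 0.195, Pfkp 0.157 and Pgam2 0.155. Without array E2 34, the SD was 0.232 for Hk1, 0.203 for Hk2, 0.217 for Pfkl and 0.266 for Pfkfb2, larger than for 86.4%, 76.4%, 81.8% and 92.9% of genes. Pfkm then had 0.145, larger than for 41.2% of genes, where it was larger than for 72.2% with that array. The SE of a difference was 0.158 for Hk2 and 0.0773 for Ldhb.

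Over the 20 arrays centred on their group means, pairs of enzymes were compared by Pearson correlation, as a description, since the points share arrays and their scaling. The median correlation over the 45 pairs was 0.36, against 0.0575 over all pairs of genes tested. Hk1 and Pfkl had 0.771, Eno3 and Ldhb 0.728, Pfkm and Pfkp 0.725, Pfkm and Pfkl 0.724, and Eno3 and Ldha 0.704. Hk1 and Ldha, by contrast, had 0.0273, and the lowest pair was Pfkfb2 and Ldhb with -0.0379. Without arrays E2 33 and E2 34 the median over the pairs was 0.268, and 7 of the 45 pairs exceeded 0.5. The pair Pfkm and Pfkp then had 0.474, Pfkm and Pfkl 0.438, and Eno3 and Ldhb 0.769. After quantile normalization of all 20 arrays the median over the pairs was 0.565, against 0.00193 over all genes, and 28 of 45 pairs exceeded 0.5 where 16 did as deposited. Hk1 and Ldha then had 0.606, and Pfkm and Ldhb 0.834, while Pfkfb2 and Eno3 had -0.211. The correlations after quantile normalization were not recomputed without arrays E2 33 and E2 34.

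**Figure D4:**
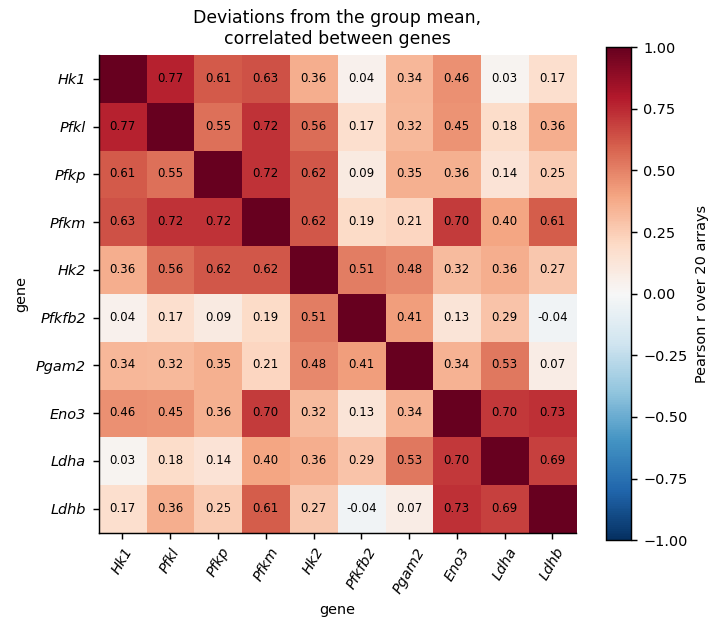
Pearson correlations between the 10 enzymes over 20 arrays, each centred on its group mean, as deposited. The pairs Hk1 with Pfkl (0.771), Eno3 with Ldhb (0.728) and Pfkm with Pfkp (0.725) have the highest values, and Pfkfb2 with Ldhb has the lowest (-0.0379).

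The 2 genes whose deposited levels followed an enzyme most closely were picked from all genes tested. For Ldha they were Atp5g1 (0.931) and Ndufa7 (0.926), for Ldhb Ndufs3 (0.893) and Cox6a2 (0.87), and for Eno3 Mdh2 (0.856) and Ndufv1 (0.815), all genes of mitochondrial respiration or the citric acid cycle. For Pgam2 they were Mrpl28 (0.896) and Dnlz (0.875). For Hk1 they were Vps52 (0.913) and Pygm, the muscle glycogen phosphorylase (0.903), and for Hk2 Ank and Tmem250-ps (0.925 each). For Pfkm they were Kpna6 (0.866) and Vamp2 (0.864), for Pfkl Anxa6 (0.891) and Sdr39u1 (0.856), for Pfkp Edc4 (0.898) and Eya3 (0.891), and for Pfkfb2 Kdelr1 (0.806) and Raly (0.803). Each is a Pearson correlation over the 20 group-centred arrays, whose values differ in spread, and none was recomputed after quantile normalization. Without arrays E2 33 and E2 34 these correlations ran from 0.716, for Pfkm with Vamp2, to 0.96, for Ldha with Ndufa7. How often mitochondrial genes follow other genes this closely was not measured.

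Other genes of the pathway came from a list. Of 30 other genes of glycolysis and lactate transport, 24 had a probe set of their own, 20 were tested, and 0 passed in any of the 6 comparisons (limma). At an unadjusted p under 0.05, 1 of the 20 passed in each comparison but that of 17 beta estradiol with the beta-titled group, where 2 did. The listed genes with no such probe set were not analysed here. The median log2 difference from placebo was -0.002 with 16 alpha LE2 (10 of 20 higher), 0.02 with 17 beta estradiol (13 of 20 higher) and -0.05 in the beta-titled group (7 of 20 higher). Over all genes tested the medians were -0.03, -0.03 and -0.04.

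Bpgm, which makes 2,3-bisphosphoglycerate in red cells, had the smallest p of these genes in each comparison of 16 alpha LE2. It averaged 9.58 ± 0.508 with 16 alpha LE2 and 9.07 ± 0.244 with placebo (SD, n = 5 each), a log2 difference of 0.51 ± 0.17 (adjusted p = 0.282). Against 17 beta estradiol the difference was 0.48, and the groups did not overlap. That separation held for 0.166% of all genes tested. Markers of red cells were measured beside it. Of 8 listed, 5 were tested. Their mean level, Bpgm included, ran from 8.29 to 9.29 with 16 alpha LE2 and from 7.94 to 8.35 with placebo. Slc4a1, the anion exchanger of red cells, was higher with 16 alpha LE2 than with placebo by 0.57 (limma, adjusted p = 0.0256). In that comparison Alas2 differed by 0.95, Slc25a37 by 0.64 and Hba-a1 by 0.06, and none of them passed (adjusted p = 0.173, 0.129 and 0.913). The part of red cells in the Bpgm value was not tested. Pgam1, the other phosphoglycerate mutase, differed from placebo by -0.28 with 16 alpha LE2, -0.25 with 17 beta estradiol and -0.28 in the beta-titled group on the log2 scale (unadjusted p 0.0761, 0.122 and 0.0772). The pyruvate kinase Pkm differed from placebo by -0.26, -0.04 and -0.21 in the same order of groups (limma, unadjusted p 0.074, 0.781 and 0.143). The phosphoglycerate kinase Pgk1 differed by -0.08, -0.03 and -0.21 (unadjusted p 0.339, 0.77 and 0.0216).

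**Figure D5:**
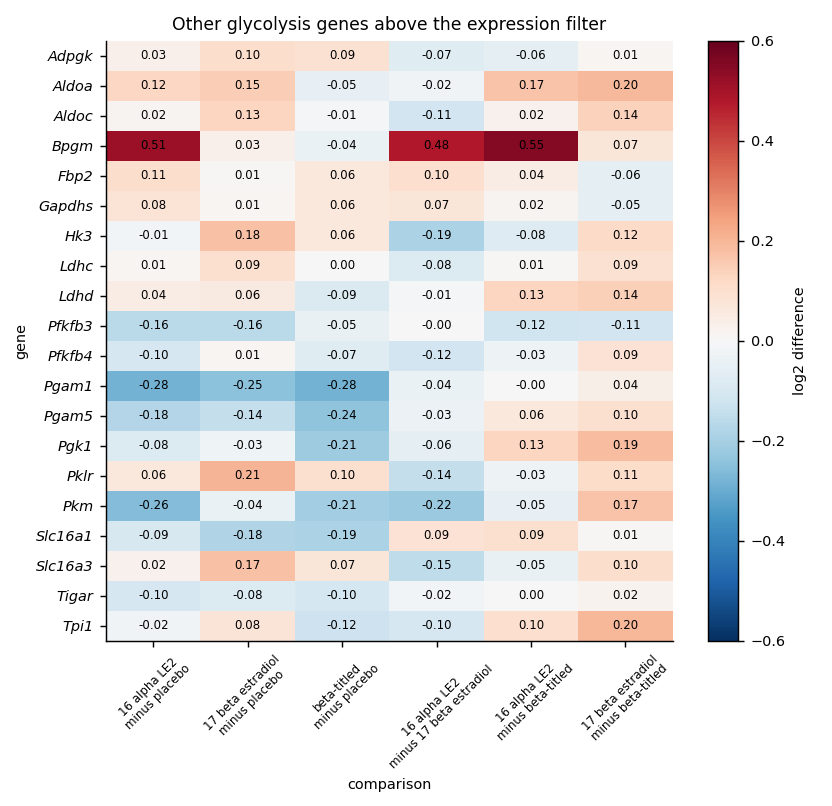
Log2 differences of the 20 other tested genes of glycolysis and lactate transport (rows) in the 6 comparisons (columns), first-named group minus second, by colour and printed value. Bpgm stands at 0.51 for 16 alpha LE2 minus placebo, and no gene passed an adjusted p of 0.05.

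Genes of the hypoxia response were examined because that response raises Hk2, Ldha and other glycolytic genes in many tissues. The list includes regulators of the response, Hif1a, Epas1 and Egln2, beside genes it induces. Of 20 listed, 19 were tested and 0 passed in any comparison (limma), with 1 or 2 under an unadjusted p of 0.05 in each. Their median log2 difference from placebo was -0.02 with 16 alpha LE2, and -0.03 both with 17 beta estradiol and in the beta-titled group. Ddit4, an inhibitor of mTOR signalling, had a log2 difference from placebo of -0.38 ± 0.153 with 16 alpha LE2 (SE, adjusted p = 0.437). It was -0.35 with 17 beta estradiol and -0.13 in the beta-titled group (adjusted p = 0.499 and 0.826). Bnip3, a mitochondrial mitophagy receptor, averaged 13.57 ± 0.188 with 16 alpha LE2 and 13.14 ± 0.224 in the beta-titled group (SD, n = 5 each), a difference of 0.42 (adjusted p = 0.265).

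Markers of the labelled tissue were measured on all arrays. All 9 cardiomyocyte markers were tested and 0 passed in any comparison, with mean levels per array of 13.73 to 13.87 with 16 alpha LE2, 13.69 to 13.99 with 17 beta estradiol, 13.67 to 13.85 in the beta-titled group and 13.60 to 14.00 with placebo. Of 11 skeletal muscle markers, 5 were below the filter, Myh1, Myh4, Tnnt3, Actn3 and Tnnc2. The other 6 were above it. Mean levels over all arrays were 13.3 for Ckm, 10.58 for Acta1, 8.09 for Tnni2, 7.27 for Mylpf, 7.16 for Pvalb and 7.04 for Myh2. Whether the signal of these 6 came from skeletal muscle or from heart muscle was not tested. The 4 atrial markers were all above the filter, at 12.18 for Nppa, 9.93 for Myl4, 9.18 for Myl7 and 8.11 for Sln. They were uneven between arrays: their mean level ran from 8.48 to 10.66 with 16 alpha LE2, 9.37 to 11.61 with 17 beta estradiol, 8.91 to 10.64 in the beta-titled group and 9.22 to 10.34 with placebo. Of 6 fibroblast markers, 1 passed with 16 alpha LE2 against placebo: Col3a1, a fibrillar collagen, fell by 1.48 (adjusted p = 0.0011). The median log2 difference of the 6 was -0.46, with mean levels of 9.44 to 9.62 with 16 alpha LE2 and 9.80 to 10.44 with placebo. In the same comparison the median was -0.29 over 6 endothelial markers, of which 5 were lower and 1 higher (-0.88 to 0.66). Their mean levels were 9.01 to 9.51 with 16 alpha LE2 and 9.24 to 9.67 with placebo. The median was -0.33 over 5 smooth muscle and pericyte markers, of which 3 were lower and 2 higher (-0.38 to 0.30). Their mean levels were 9.89 to 10.22 with 16 alpha LE2 and 10.05 to 10.30 with placebo. Of the markers of endothelium, smooth muscle, macrophage, atrium and adipocyte, 0 passed in any comparison. For adipocyte this rests on Lep alone, 1 of 5 listed, with a mean level of 7.30. What such differences between markers contribute to the levels of the enzymes was not tested.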

How the data were processed

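RNA from 20 ventricle samples (4 groups of 5) was biotinylated, starting from 100 ng, and hybridized to Affymetrix mouse arrays, per the labels. The deposited table holds 45101 probe sets on a log2 scale, a unit read from its values (5.07 to 15.31). The sources used here do not state how the authors summarized and normalized it. The means of the arrays were 7.37 to 7.38, so array totals carry no depth, and the number of arrays limits the precision.

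Genes were named from probe sets annotated to exactly 1 symbol, the one of highest mean per gene, with a mean above 6.93, the median of all probe sets without the controls. Groups were taken from the titles. All 20 arrays were fitted with limma 3.58.1 in R 4.3.3 (group means, moderated with an intensity trend), and p-values were adjusted by Benjamini-Hochberg over 12082 genes. The fit was run on simulated data with independent genes and the same spread of a gene on every array. The deposited arrays differ from that, so the simulation does not show how the fit handles them. Intervals are 95% intervals of that fit.

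The 10 enzymes and the gene lists (other glycolysis, hypoxia, cell type markers) were chosen with earlier results of these data known. Named from the lists were called genes and up to 4 genes of smallest p in a comparison, of which a part is printed, and for each enzyme the 2 genes of highest correlation. Promoter windows came from RefSeq (GRCm38.p6). Alternatives covered the filter, probe set summary, variance prior, scaling, array weights, samples in the fit, replicate block, pooled controls and leaving out each array. Figures were drawn with matplotlib 3.10.9.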

Additional observations from a re-analysis of the deposited data

Results flagged for a closer look

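Pfkfb2 on array beta 36 read 8.615, well above the nearest beta-titled array at 8.226, a gap of 0.772 of the range of that group. Ldhb on array alpha 34 read 13.46, above the nearest array with 16 alpha LE2 at 13.38, a gap of 0.74 of the range. These were the 2 of 40 sets of 5 arrays (10 enzymes by 4 groups) in which 1 array passed Dixon's 95% critical value of 0.71, and chance passes about 1 set in 20. Array E2 34, the highest estradiol array for 8 of the 10 enzymes, did not pass it for any of them, and neither did array E2 33.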

How the results depend on the processing

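Under 31 alternative settings, 1820 differences of the 10 enzymes were recomputed and 0 passed an adjusted p of 0.05. The smallest, 0.208, was that of Pgam2 for 16 alpha LE2 against placebo with array weights. Pgam2 kept its sign in this comparison in every setting, from -0.24 to -0.11, the upper end with placebo and beta-titled arrays pooled as the control, and for 17 beta estradiol against placebo, from -0.22 to -0.07. Of the 60 differences, 24 never turned sign. In the other 36, 149 recomputed values had the sign turned, 75 of them on leaving out 1 array, and none of the 149 had passed. The largest of these was Pgam2 in the beta-titled group against placebo, -0.18 as deposited and 0.004 after quantile normalization.

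Counts over all genes were less stable. For 16 alpha LE2 against placebo, 27 genes passed, and 8 to 74 on leaving out 1 array (74 without E2 33), 357 with array weights, 60 without the 3 arrays of smallest SD and 8 with array SD as a covariate. For 16 alpha LE2 against the beta-titled group, 21 passed, 7 to 37 on leaving out 1 array and 10 to 122 otherwise. For 16 alpha LE2 against 17 beta estradiol, 2 passed, 0 to 11 and 0 to 20. For the test over 4 groups, 19 passed, 3 to 26 and 8 to 165. Of the other comparisons, those of 17 beta estradiol had 0 or 1 and that of the beta-titled group with placebo 0 in every setting. The settings without 3 arrays and with array SD were chosen after seeing the data. Deviations of same-numbered arrays of different groups had correlations from -0.346 to 0.509 (17 pairs, median -0.02, 6 over 0.1). The labels do not say what the numbers mean, and such correlations cannot settle whether they mark a pairing. With the replicate block, 0 enzymes passed, and 36 genes did for 16 alpha LE2 against placebo. The cause of the sign turns was not tested.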

Other observations

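One further Pfkp probe set, 1437759_at, lay below the filter, with a mean level of 6.26. It averaged 6.16 ± 0.0962 with 17 beta estradiol and 6.33 ± 0.0735 in the beta-titled group (SD, n = 5 each), a log2 difference of -0.17 where the probe set used for Pfkp had 0.12. The correlation between these probe sets over the 20 group-centred arrays was -0.07. It was singled out after its values were seen. The Hk1 probe set below the filter, 1420901_a_at, had a correlation of 0.868 with the one used, and a log2 difference from placebo of 0.001 with 16 alpha LE2 and 0.03 with 17 beta estradiol, where the one used had 0.17 and 0.22. The third Pfkl probe set, 1453541_at, below the filter, had a correlation of 0.0725 with the one used, and 1450269_a_at, above it, had 0.893.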
